A study of Mus musculus with 9 samples.

Results

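Solute carriers are membrane proteins that move amino acids, sugars, metals, ions, vitamins and nucleotides across the plasma membrane and the membranes of organelles. Their genes were taken from the RNA-seq table by 2 criteria, a symbol that opens with Slc and a digit and an annotation as protein-coding in GENCODE M21. Of the 5301 genes in the table, 78 met both criteria. The same annotation names 371 protein-coding genes of this kind, and those outside the table were not analysed here. The 78 genes belonged to 34 subfamilies, of which 21 had a single member in the table. Slc9a3r1 and Slc9a3r2 met the criteria by symbol, but they encode PDZ scaffold proteins that bind transporters and do not transport a substrate themselves. Without them, 76 genes remained.

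To examine how Resf1 depletion changed gene expression, RNA-seq was performed on mouse 6DT1 cells, a line from a mammary tumor of an MMTV-Myc mouse that is syngeneic to FVB/NJ. The cells carried a lentiviral scramble hairpin (shControl, the shScramble control) or the shRNA H4 (shH4) or H6 (shH6) against Resf1, and all 3 lines had been transduced and selected with puromycin. Each group held 3 libraries, numbered 1 to 3, from separate dishes of 1 transduced line, so a hairpin cannot be told apart from its line. The p-values therefore measured the spread between dishes, not between transductions.

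Solute carriers are numbered by sequence family, and members of 1 family often share a kind of substrate. Several Slc7 exchangers need the heavy chain encoded by Slc3a2 to reach the membrane, and several Slc16 proteins carry lactate with protons. Slc39 proteins bring zinc into the cytosol and Slc30 proteins take it out, and most Slc25 proteins carry substrates across the inner mitochondrial membrane. Fast-growing tumor cells rely on such carriers for the import of amino acids and the export of lactate. In bulk RNA, fewer cells that express a gene and less RNA per cell cannot be told apart.

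Resf1 was lower in both KD lines, with means of 1585 (shControl), 982 (shH4) and 1121 (shH6) normalized counts. Each library held an estimated 10.5 to 19.9 M reads in the listed genes. Of the 16 mammary epithelial markers, Krt8 and Krt18 were in the table and detected in every library, and the others were not analysed here. Their summed level was 26584 to 28996 in shControl, 22386 to 23863 in shH4 and 24795 to 27873 in shH6. Of the markers of other cell types, 2 of 9 immune, 1 of 8 fibroblast and 2 of 6 endothelial genes were listed. The summed endothelial level (Cdh5 and Pecam1) was 173 to 208 normalized counts in shH4, against 20.2 to 30.7 in shControl and 26.01 to 31.2 in shH6. The summed immune level (Cd68 and Itgb2) was 3482 to 3666 in shControl, 2362 to 2512 in shH4 and 2856 to 3053 in shH6. Most of it was Itgb2 (means of 2942, 2225 and 2747), whereas Cd68 had means of 638, 226 and 215 in these groups. Pdgfra, the fibroblast marker, was at 69.7 to 108 in shControl, 119 to 162 in shH4 and 128 to 157 in shH6. The part of these differences in the results below was not tested.

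The table holds a selected set of genes, as all 5301 moved the same way in both hairpins. Agreement of the hairpins in direction was therefore fixed in advance. The adjusted p-values against shControl hold only within this set and give no false discovery rate over all expressed genes. Counts against shControl are read beside the share called in the whole table. In shH4, 31 Slc genes were higher (against 49.2% of all listed genes) and 42 lower (against 46.5%) with a limma adjusted p-value under 0.05. In shH6, 31 were higher (against 49.1% of all listed genes) and 45 were lower (against 46.9%). Both hairpins, which share the control libraries, called 31 genes higher (against 47.2% of all listed genes) and 40 lower (against 44.6%). These counts were 39.7% and 51.3% of the 78. Counts per substrate group and gene list below are read beside the same 47.2% and 44.6%. For 71 of the 78 genes the 6 KD libraries did not overlap the shControl range, against 86.4% of all listed genes.

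The changes were small. The median solute carrier gene changed 1.203-fold with H4 and 1.21-fold with H6, as in the whole table (1.203-fold and 1.21-fold). A change of more than 1.5-fold was seen for 7 solute carrier genes in shH4 and 8 in shH6, or 8.97% and 10.3% of them, against 12.5% and 13.1% of all listed genes. The median log2 fold change was −0.15 with H4 and −0.20 with H6, and 0.096 and 0.088 over the whole table. By substrate, carriers of sugars and lactate, of amino acids and of vitamins and choline were mostly lower, and zinc carriers of the Slc39 family were mostly higher. Each substrate group held members that moved each way.

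**Figure D1:**
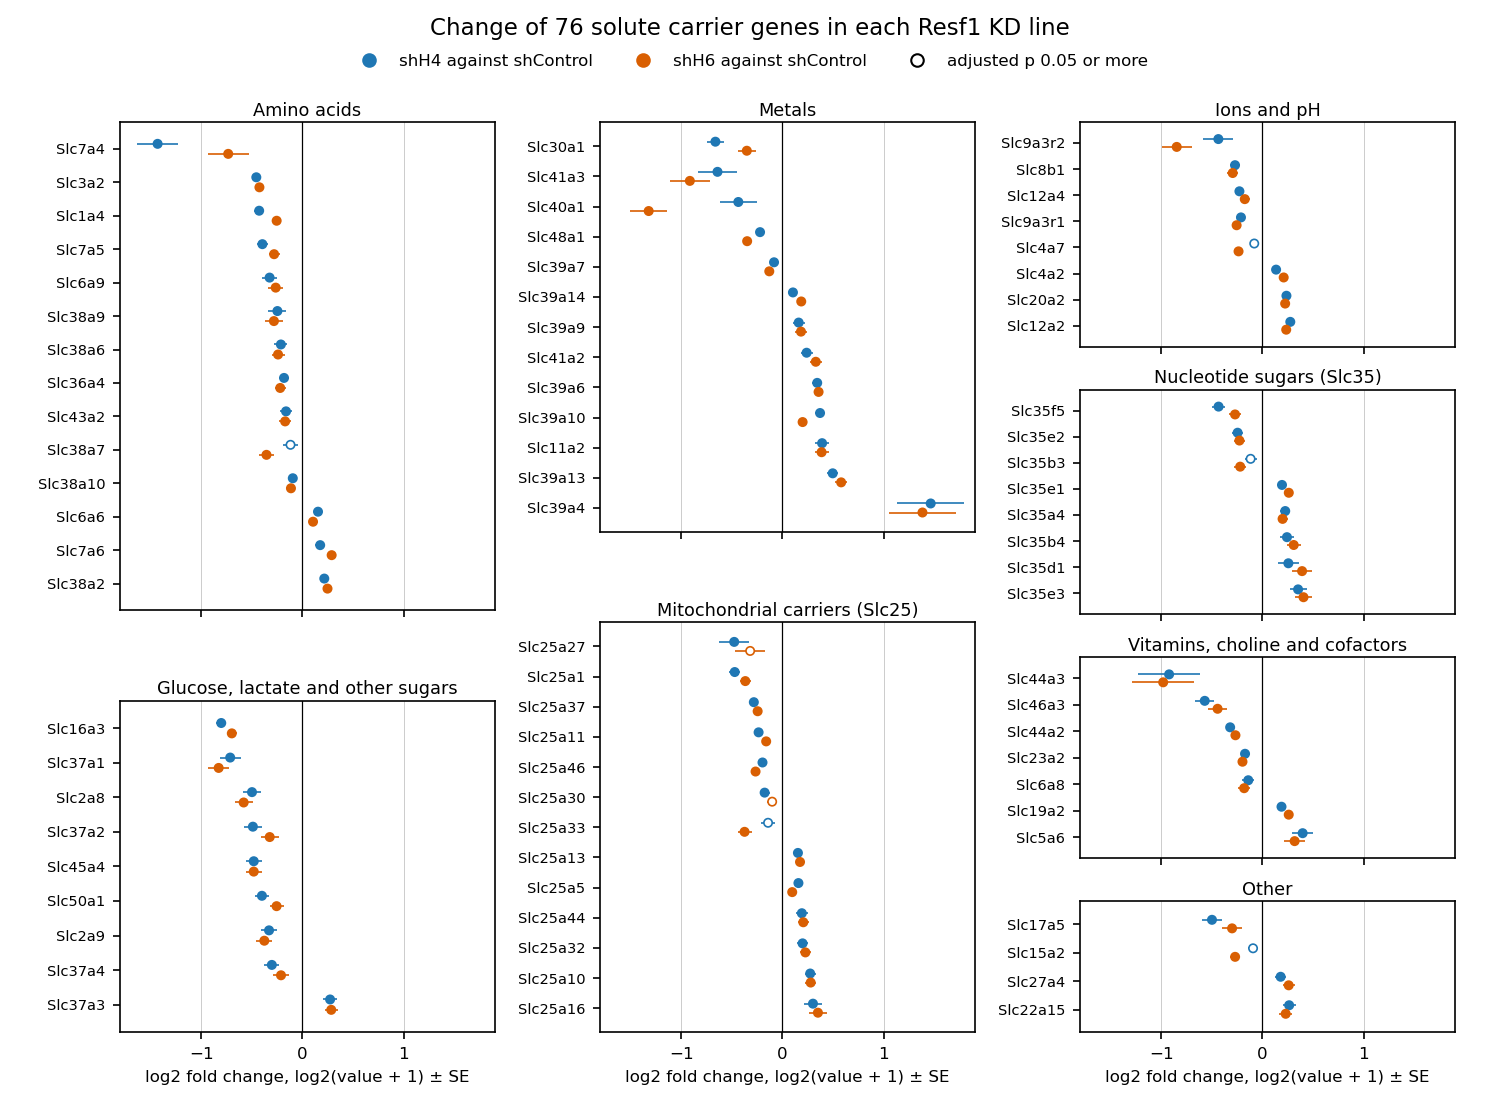
Log2 fold change on the log2(value + 1) scale (x axis) of 76 of the 78 genes (y axis) in shH4 and shH6 against shControl, by substrate. Bars are the standard error of the fit over 9 libraries, and open points have an adjusted p of 0.05 or more. Of the 9 sugar and lactate carriers, 8 lie left of 0 in both hairpins, and 8 of the 13 metal carriers lie right of it.

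Amino acid carriers were examined first. Of the 64 annotated genes, 14 were in the table. Both hairpins called 10 of them lower and 3 higher, against 44.6% and 47.2% of all listed genes. The median log2 fold change was −0.20 with H4 and −0.25 with H6. The heavy chain Slc3a2 (ENSMUSG00000010095) and its light chain Slc7a5, the leucine transporter LAT1, were both lower. Slc3a2 was at 3532, 3521 and 3388 normalized counts in the shControl libraries, 2521, 2641 and 2456 in shH4 and 2539.7, 2634 and 2606 in shH6. Slc7a5 was at 3744, 4251 and 4128 normalized counts in the shControl libraries, 3019, 3062 and 3125 in shH4 and 3272, 3095 and 3628 in shH6. All 6 KD libraries lay below all 3 shControl libraries for each gene. The log2 fold change of Slc3a2 was −0.46 with H4 and −0.42 with H6 (SE 0.038; limma adjusted p = 5.45e-08 and 1.22e-07). That of Slc7a5 was −0.40 and −0.28 (SE 0.053; limma adjusted p = 8.77e-06 and 0.000203).

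The other listed light chain of Slc3a2 moved the other way. Slc7a6, which exchanges cationic for neutral amino acids, was at 1063, 1168 and 1112 normalized counts in the shControl libraries, 1301, 1224 and 1248 in shH4 and 1330.2, 1349 and 1402 in shH6. It rose by 0.18 in shH4 and 0.29 in shH6 on the log2 scale (limma adjusted p = 0.00288 and 5.30e-05), and by 0.11 in shH4 after scaling by the upper quartile. The ratio of the normalized counts of Slc7a6 to those of Slc3a2 was 0.320 ± 0.0168 for shControl, 0.496 ± 0.0283 for shH4 and 0.525 ± 0.0128 for shH6 (SD over 3 libraries each), without overlap between shControl and either KD group. The ratio of Slc7a5 to Slc3a2 was 1.16 ± 0.0885, 1.21 ± 0.0575 and 1.29 ± 0.108, and these groups overlapped. Both ratios were chosen after the values were seen and were not tested.

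Slc7a4, a relative of the cationic amino acid carriers, fell most in this group. It was at 75.2, 64.0 and 63.1 normalized counts in the shControl libraries, 33.5, 23.1 and 18.6 in shH4 and 41.3, 36.7 and 42.4 in shH6. The libraries of the 3 groups did not overlap, with shH4 lowest. The log2 fold change was −1.43 with H4 and −0.73 with H6 (SE 0.20; limma adjusted p = 1.35e-05 and 0.00317). Slc1a4, which carries serine, alanine and cysteine, was at 1547, 1568 and 1562 normalized counts in the shControl libraries, 1145, 1154 and 1179 in shH4 and 1249, 1405 and 1272 in shH6. It was lower in both KD lines, and more so in shH4, with log2 fold changes of −0.43 and −0.25 (SE 0.047; limma adjusted p = 1.13e-06 and 0.000160).

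The Slc1a4 promoter is shown because it was one of 2 promoters of these genes with the core of the amino acid response element, which transcription factors such as ATF4 bind. RefSeq promoter windows of 300 bases (250 before to 50 after the start, GRCm38.p6) were matched by symbol for 55 of the 78 genes, which had 70 windows. The core TGATGNAA was searched on both strands. It was in 2 windows, those of Slc1a4 and Slc50a1, or 2.86% of the 70, against 3.97% of all 32851 windows and 2.15% of the windows of the other listed protein-coding genes. The window of Slc1a4 lies at chr11:20332664-20332963 on the minus strand. The match, in capitals, reads TTGCATCA on the gene's strand and begins 4 bases before the start.
Slc1a4: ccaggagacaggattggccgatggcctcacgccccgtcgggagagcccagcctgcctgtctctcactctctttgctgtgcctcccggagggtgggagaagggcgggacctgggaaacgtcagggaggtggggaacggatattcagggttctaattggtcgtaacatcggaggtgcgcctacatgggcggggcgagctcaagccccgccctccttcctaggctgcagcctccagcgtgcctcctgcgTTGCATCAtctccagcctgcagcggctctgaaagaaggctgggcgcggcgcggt

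The carriers that rose in this group were Slc38a2, Slc7a6 and Slc6a6. Slc38a2, a sodium-coupled carrier of small neutral amino acids that amino acid starvation is known to induce, was at 6764, 7572 and 7074 normalized counts in the shControl libraries, 8434, 8027 and 8379 in shH4 and 8189, 8358 and 8854 in shH6. The KD libraries lay above all shControl libraries, with log2 fold changes of 0.22 and 0.25 (SE 0.042; limma adjusted p = 0.000271 and 7.85e-05). The taurine carrier Slc6a6 was higher by 0.15 and 0.10 (limma adjusted p = 0.000844 and 0.0101), and under upper quartile scaling by 0.093 and 0.053, with the call in shH6 lost (adjusted p = 0.157). The other 6 genes called in both hairpins were lower, from −0.32 to −0.095 in shH4 and from −0.28 to −0.11 in shH6. Of these, Slc38a10 and Slc43a2 in shH4, Slc43a2 in shH6 and Slc38a9 in both lost their calls when certain single libraries were left out. Scaling by the column total also lost the calls of Slc38a10 in shH4 and Slc43a2 in shH6. Slc38a7, named after its values were seen, was lower in shH6 (−0.35, limma adjusted p = 0.000322) and did not pass in shH4 (−0.12, adjusted p = 0.120). The difference between the hairpins did not pass either (adjusted p = 0.0502). The shH4 value passed after scaling by the upper quartile and without shControl replicate 2. The difference passed with library weights, with only these groups in the fit, and without shControl replicate 1 or 2 or shH4 replicate 3.

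**Figure D2:**
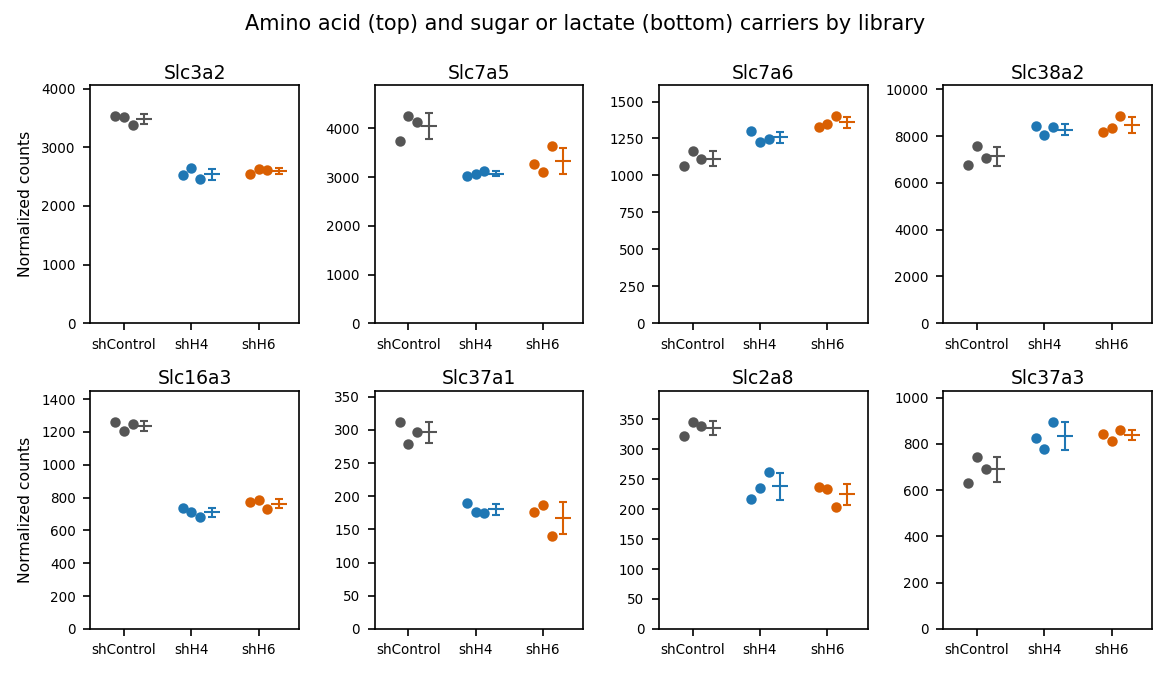
Normalized counts (y axis) of 8 carriers in each of the 9 libraries (points) by group (x axis), with the mean and SD beside them. In the panels of Slc3a2, Slc7a5, Slc16a3, Slc37a1 and Slc2a8 all KD libraries lie below shControl, and in those of Slc7a6, Slc38a2 and Slc37a3 all lie above it.

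Genes of amino acid synthesis and sensing were then examined beside the carriers. Of 30 genes in the list, 19 were in the table. Both hairpins called 15 of them lower and 3 higher, against 44.6% and 47.2% of all listed genes. The median log2 fold change was −0.38 (H4) and −0.47 (H6). Asns, the asparagine synthetase, was at 4701, 4545 and 4646 normalized counts in the shControl libraries, 3196, 3163 and 3119.9 in shH4 and 3074, 3281 and 2876 in shH6. All KD libraries were below shControl, with log2 fold changes of −0.55 and −0.59 (limma adjusted p = 2.27e-08 and 1.10e-08). The largest falls by the change in shH4 were those of Chac1, which degrades glutathione (−1.39 and −1.12), and Ddit4, an inhibitor of mTORC1 (−1.29 and −0.88). Trib3 (−0.86 and −0.72), the proline enzyme Pycr1 (−0.87 and −1.21) and the leucine sensor Sesn2 (−0.62 and −0.63) also fell. Atf4, the transcription factor known to induce many of these genes, was at 5105, 5159 and 5075 normalized counts in the shControl libraries, 4378, 4364 and 4132 in shH4 and 4646, 5021 and 4626 in shH6. It fell (log2 fold change −0.25 and −0.10; limma adjusted p = 2.61e-05 and 0.0180). The 3 genes that rose were the glutathione enzymes Gclc (0.30 and 0.14) and Gclm (0.52 and 0.43) and the mTORC1 subunit Rptor (0.28 and 0.27). All of these genes were called in both hairpins.

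**Figure D3:**
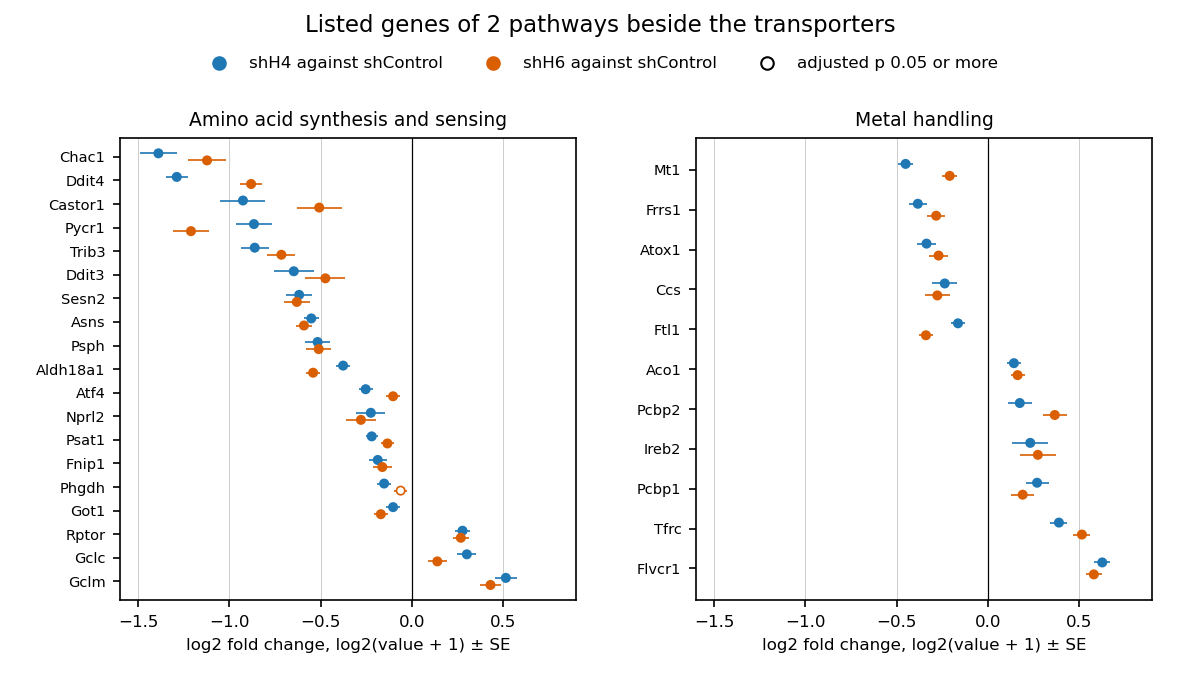
Log2 fold change on the log2(value + 1) scale (x axis) with its standard error, in shH4 and shH6 against shControl, of the listed genes of amino acid synthesis and sensing (left) and metal handling (right). In the left panel 15 of 19 genes are called lower in both hairpins, and in the right panel 6 of 11 are called higher and 5 lower.

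Among the listed genes, carriers of glucose, lactate and other sugars formed the group with the largest median fall. Slc2a1 and Slc16a1 were not in the table. Of 43 annotated genes, 9 were in the table. Both hairpins called 8 of these lower and 1 higher, against 44.6% and 47.2% of all listed genes. The median log2 fold change was −0.48 with H4 and −0.38 with H6. Their summed level was 4982 ± 35.4 normalized counts for shControl, 3817 ± 62.3 for shH4 and 3954 ± 129 for shH6 (SD over 3 libraries each), and no library of a KD group reached the shControl range. Slc16a3, the lactate exporter MCT4, was at 1262, 1203 and 1248 normalized counts in the shControl libraries, 735, 714 and 682 in shH4 and 773, 786 and 732 in shH6. The KD libraries were all far below the control libraries, with a change of the mean of −42.6% in shH4 and −38.3% in shH6. The log2 fold change was −0.80 and −0.70 (SE 0.051; limma adjusted p = 2.73e-09 and 1.31e-08).

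The window of Slc16a3 is shown as an example of a GC-rich promoter of a gene that fell. The canonical G-quadruplex pattern, 4 runs of at least 3 G with loops of 1 to 7 bases on either strand, was in 27 of the 70 windows (38.6%), against 18.6% of all windows and 28.9% of the windows of the other listed protein-coding genes. It was in 36% of the windows of the solute carrier genes that rose and 44.7% of those that fell. The Slc16a3 window lies at chr11:120948817-120949116 (GRCm38.p6) on the plus strand and holds 73.3% G and C. Capitals mark the stretches that match the pattern, some of them overlapping. The E-box CACGTG, searched in the same way, was in 10% of the 70 windows, 7.15% of all windows and 9.95% of the windows of the other listed protein-coding genes. The Slc16a3 window did not hold it.
Slc16a3: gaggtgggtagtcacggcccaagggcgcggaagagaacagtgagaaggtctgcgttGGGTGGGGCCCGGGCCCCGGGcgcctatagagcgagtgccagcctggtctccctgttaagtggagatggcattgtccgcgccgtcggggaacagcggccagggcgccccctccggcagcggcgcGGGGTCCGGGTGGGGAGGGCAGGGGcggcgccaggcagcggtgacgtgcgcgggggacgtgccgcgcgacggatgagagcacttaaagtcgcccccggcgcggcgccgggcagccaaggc

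Slc37a1, an exchanger of glucose 6-phosphate and phosphate in the endoplasmic reticulum, was at 312, 279.5 and 297 normalized counts in the shControl libraries, 190.1, 177 and 174 in shH4 and 176, 186 and 141 in shH6. Slc2a8, the intracellular glucose transporter GLUT8, was at 322, 346 and 339 normalized counts in the shControl libraries, 217, 235 and 262 in shH4 and 236, 233 and 205 in shH6. Neither gene had a KD library within the shControl range. The log2 fold change of Slc37a1 was −0.71 and −0.83 (SE 0.10; limma adjusted p = 1.62e-05 and 3.48e-06), and that of Slc2a8 was −0.50 and −0.58 (SE 0.088; limma adjusted p = 0.000112 and 2.61e-05). Slc37a3 alone of the 9 rose. Its values were 633, 744 and 691 normalized counts in the shControl libraries, 827, 776 and 896 in shH4 and 842, 813 and 859 in shH6. The log2 fold change was 0.27 with H4 and 0.28 with H6 (limma adjusted p = 0.00122 and 0.000855). The other 5 genes of the group, Slc2a9, Slc37a2, Slc37a4, Slc45a4 and Slc50a1, were lower in both hairpins, from −0.49 to −0.30 in shH4 and from −0.48 to −0.21 in shH6. The call of Slc37a4 in shH6 was lost without shH6 replicate 3.

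Of 27 glycolysis genes and partners of lactate carriers, 11 were in the table, with 6 lower and 3 higher in both hairpins. Bsg, the chaperone that MCT4 needs at the membrane, was lower (log2 fold change −0.23 in shH4 and −0.22 in shH6; limma adjusted p = 4.48e-05 and 6.45e-05). The aldolase Aldoc (−1.17 and −0.91) and Txnip, which restrains glucose uptake (−0.36 and −0.45), were lower as well. The enzyme that makes lactate, Ldha, was at 38672, 38520.1 and 39384 normalized counts in the control libraries, 42028, 42691 and 40658 with H4 and 44419, 45590.0 and 41881 with H6. It was higher in all KD libraries, by 0.10 and 0.18 on the log2 scale (limma adjusted p = 0.0179 and 0.000617). Pfkl (0.27 and 0.33) and Pgam1 (0.21 and 0.24) were the other glycolytic genes that rose.

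Metal carriers were examined next. Of 33 annotated genes, 13 were in the table. Both hairpins called 8 of them higher and 5 lower, against 47.2% and 44.6% of all listed genes. The median log2 fold change was 0.16 (H4) and 0.19 (H6), or 0.099 and 0.134 after scaling by the upper quartile. Of the 7 listed genes of the Slc39 family, whose proteins bring zinc and other metals into the cytosol, 6 rose and Slc39a7 fell in both hairpins. The summed level of the family was 11376 ± 91.4 normalized counts for shControl, 12667 ± 158 for shH4 and 12667 ± 95.1 for shH6 (SD over 3 libraries each), without overlap with shControl. After scaling by the upper quartile, the calls of Slc39a9 in both hairpins and of Slc39a14 in shH4 (0.043, adjusted p = 0.269) were lost.

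Slc39a13, a zinc carrier of Golgi and vesicle membranes, was at 1006, 968 and 1012 normalized counts in the shControl libraries, 1466, 1491 and 1266 in shH4 and 1458, 1469 and 1537 in shH6. All KD libraries were above all control libraries, with log2 fold changes of 0.50 and 0.58 (SE 0.056; limma adjusted p = 1.34e-06 and 2.64e-07). Slc39a10, a zinc importer of the plasma membrane, was at 1457, 1376 and 1411 normalized counts in the shControl libraries, 1787, 1768 and 1938 in shH4 and 1673, 1625 and 1575 in shH6. It was highest in shH4, with log2 fold changes of 0.37 and 0.20 (SE 0.046; limma adjusted p = 3.34e-06 and 0.000845). Slc39a14, which carries zinc, iron and manganese, was at 3228, 3472 and 3383 normalized counts in the shControl libraries, 3681, 3636 and 3515 in shH4 and 3784, 3900.2 and 3779.7 in shH6. It was higher by 0.10 and 0.19 (limma adjusted p = 0.0147 and 0.000285). Its call in shH4 was lost without shControl replicate 1 (0.075, adjusted p = 0.0875) and without shH4 replicate 1 (0.090, adjusted p = 0.0536). Slc39a4, the intestinal zinc importer, had the largest fold of the family at few reads, with a shControl mean of 4.05 normalized counts. It was at 4.10, 4.74 and 3.32 normalized counts in the shControl libraries, 16.8, 9.89 and 12.7 in shH4 and 12.2, 10.5 and 13.7 in shH6. At so few reads the log2 fold changes of 1.46 and 1.38 carried a standard error of 0.33 (limma adjusted p = 0.000836 and 0.00121). With a pseudocount of 10 in place of 1 they were 0.71 and 0.65. Slc39a6 and Slc39a9, named after their values were seen, rose by 0.34 and 0.16 with H4 and by 0.36 and 0.18 with H6. The calls of Slc39a9 were lost in both hairpins without shControl replicate 2, and in shH4 also without shH4 replicate 3.

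Slc39a7, which releases zinc from the endoplasmic reticulum, was at 3636, 3663 and 3578 normalized counts in the shControl libraries, 3369.7, 3563 and 3341 in shH4 and 3307, 3383 and 3252 in shH6. Its fall was small, at −0.083 and −0.13 (limma adjusted p = 0.0367 and 0.00330), and its call in shH4 was lost after scaling by the column total (−0.056, adjusted p = 0.111) and without a trend (adjusted p = 0.0583). After scaling by the upper quartile it was −0.14 and passed (adjusted p = 0.00169). The call was also lost, at −0.092 to −0.065, without any 1 of the shControl libraries, shH4 replicate 1 or 3, or shH6 replicate 1. The zinc exporter of the plasma membrane, Slc30a1, fell. It was at 374, 389.5 and 370.0 normalized counts in the shControl libraries, 247, 259 and 213 in shH4 and 315, 271 and 304 in shH6. The 3 groups did not overlap, with shControl highest and shH4 lowest. On the log2 scale it changed by −0.66 with H4 and −0.35 with H6 (SE 0.086; limma adjusted p = 6.01e-06 and 0.00140). Mt1, the zinc-binding metallothionein, was at 2118, 2161 and 2120.1 normalized counts in the shControl libraries, 1534, 1628 and 1522 in shH4 and 1868, 1887 and 1782 in shH6. It was in the same order of groups as Slc30a1, with log2 fold changes of −0.45 and −0.21 (limma adjusted p = 1.35e-07 and 0.000252). The ratio of the normalized counts of Slc39a10 to those of Slc30a1 was 3.75 ± 0.188 for shControl, 7.73 ± 1.22 for shH4 and 5.498 ± 0.443 for shH6 (SD over 3 libraries each), a ratio chosen after the values were seen and not tested.

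The promoters of Slc30a1 and Slc39a13 are shown because the metal response element is the known target of the zinc-sensing factor MTF1, and these carriers moved in opposite directions. Its core, TGCACNC or TGCGCNC on either strand, was in 24 of the 70 windows (34.3%), against 25.7% of all windows and 37.4% of the windows of the other listed protein-coding genes. It was in 4 of the 8 windows of metal carriers. The window of Slc30a1 lies at chr1:191906531-191906830 (GRCm38.p6) on the plus strand and holds 2 matches on the opposite strand. These begin 43 bases before and 31 bases after the start. The window of Slc39a13 lies at chr2:91070266-91070565 (GRCm38.p6) on the minus strand and holds 1 match, 18 bases after the start. Capitals mark the matches.
Slc30a1: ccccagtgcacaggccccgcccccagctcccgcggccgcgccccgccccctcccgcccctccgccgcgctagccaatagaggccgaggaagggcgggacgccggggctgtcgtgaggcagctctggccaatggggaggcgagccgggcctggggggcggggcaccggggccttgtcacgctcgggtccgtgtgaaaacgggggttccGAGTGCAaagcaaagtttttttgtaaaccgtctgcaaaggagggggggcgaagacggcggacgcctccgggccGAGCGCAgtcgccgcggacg
Slc39a13: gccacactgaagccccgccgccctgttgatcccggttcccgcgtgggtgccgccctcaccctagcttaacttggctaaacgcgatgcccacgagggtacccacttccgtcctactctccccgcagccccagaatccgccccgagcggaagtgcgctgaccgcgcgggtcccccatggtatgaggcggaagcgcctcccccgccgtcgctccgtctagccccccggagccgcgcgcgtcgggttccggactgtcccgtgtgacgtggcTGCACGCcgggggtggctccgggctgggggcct

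Among the iron carriers, the exporter fell and an importer rose. Slc40a1, ferroportin, the known iron exporter of the cell, was at 97.7, 107 and 113 normalized counts in the shControl libraries, 72.9, 70.3 and 91.9 in shH4 and 51.3, 47.2 and 29.9 in shH6. The groups did not overlap, and shH6 was lowest. Its log2 fold change was −0.44 with H4 and −1.32 with H6 (SE 0.18; limma adjusted p = 0.0302 and 9.47e-06). The call in shH4 was lost without a trend in the fit (adjusted p = 0.0512). It was lost too without shControl replicate 2 (−0.43) or 3 (−0.39) and without shH4 replicate 1 (−0.39) or 2 (−0.36). Slc11a2, the divalent metal importer DMT1, was at 383, 334 and 338 normalized counts in the shControl libraries, 482, 459 and 442 in shH4 and 454, 466 and 458 in shH6. It rose by 0.39 and 0.39 as a log2 difference (SE 0.069; limma adjusted p = 0.000105 and 0.000112). The heme carrier Slc48a1, named after its values were seen, fell (log2 fold change −0.22 in shH4 and −0.35 in shH6), and the mitochondrial iron importer Slc25a37 is given with its family below. Slc41a3, a magnesium carrier at low level, was at 58.8, 49.8 and 43.2 normalized counts in the shControl libraries, 29.6, 31.9 and 34.2 in shH4 and 29.8, 28.3 and 21.2 in shH6. It fell (log2 fold change −0.64 and −0.91; SE 0.20; limma adjusted p = 0.00610 and 0.000503), whereas its relative Slc41a2 rose by 0.24 and 0.33.

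**Figure D4:**
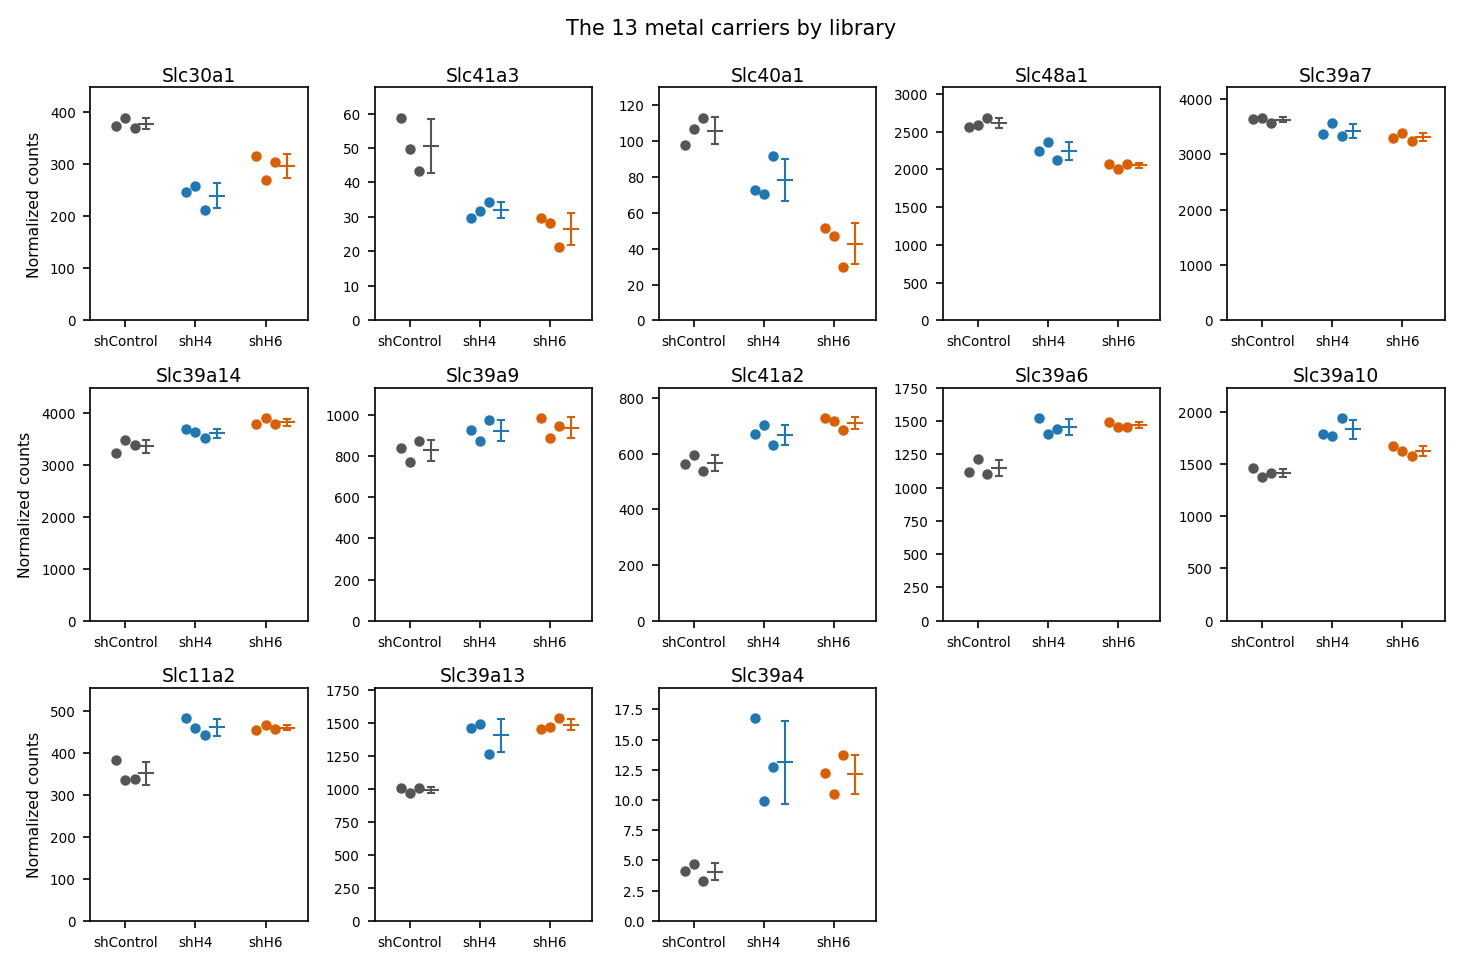
Normalized counts (y axis) of the 13 metal carriers in each of the 9 libraries (points) by group (x axis), with the mean and SD beside them, in order of the change in shH4. Slc30a1, Slc41a3, Slc40a1, Slc48a1 and Slc39a7 lie below shControl in all KD libraries, and all others but Slc39a9, whose groups overlap, lie above it.

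Other genes of metal handling were listed for 11 of 25, with 6 higher and 5 lower in both hairpins. The iron-regulatory proteins are known to stabilise the mRNAs of the transferrin receptor and of DMT1 when iron is low and to block the translation of ferritin and ferroportin. The receptor Tfrc was at 4395, 4771 and 4745 normalized counts in the shControl libraries, 6432, 6052 and 5749 in shH4 and 6640.3, 6943 and 6308 in shH6. It rose by 0.39 and 0.52 on the log2 scale (limma adjusted p = 2.39e-06 and 1.28e-07). The ferritin light chain Ftl1 fell (log2 fold change −0.16 in shH4 and −0.34 in shH6; limma adjusted p = 0.00138 and 1.89e-06). The iron-regulatory proteins themselves, Aco1 and Ireb2, rose by 0.14 and 0.23 with H4 and by 0.16 and 0.27 with H6. The heme exporter Flvcr1 rose by 0.63 and 0.58, and the copper chaperones Atox1 (−0.34 and −0.27) and Ccs (−0.24 and −0.28) fell. Ftl1 belongs to a family with near-identical copies among which the counting could have split reads, so its value is uncertain.

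The nucleotide sugar group took in Slc35 carriers together with relatives that have no assigned substrate. It held 8 Slc35 genes, of 35 annotated in the group of nucleosides and nucleotide sugars. Both hairpins called 5 of them higher and 2 lower, with a median log2 fold change of 0.21 (H4) and 0.23 (H6). Slc35d1, which brings UDP-glucuronic acid into the endoplasmic reticulum, was at 165, 165 and 191 normalized counts in the shControl libraries, 211, 208 and 201 in shH4 and 214, 208 and 263 in shH6. Slc35b4, a carrier of UDP-xylose and UDP-N-acetylglucosamine, was at 678, 802 and 808 normalized counts in the shControl libraries, 928, 856 and 916 in shH4 and 951, 876 and 1004 in shH6. The KD libraries of both genes lay above shControl. The log2 fold changes were 0.26 and 0.39 for Slc35d1 (limma adjusted p = 0.0240 and 0.00202) and 0.24 and 0.31 for Slc35b4 (limma adjusted p = 0.00393 and 0.000684). Without shControl replicate 1 the shH4 value of Slc35b4 was 0.16. The call of Slc35d1 in shH4 was lost without shControl replicate 1 (0.22) or 2 (0.22), without shH4 replicate 1 (0.24) or 2 (0.25), and under upper quartile scaling (0.20, adjusted p = 0.0770). Slc35e3, with no assigned substrate, rose by 0.35 and 0.41. Its relative Slc35e2 fell (log2 fold change −0.24 and −0.23), and Slc35f5 fell (log2 fold change −0.43 and −0.27). Among 25 genes of nucleotide salvage and nucleotide sugar synthesis, 12 were listed and both hairpins called 5 higher and 5 lower. Of these, Ugdh, which makes UDP-glucuronic acid, rose by 0.16 and 0.095, with overlap between KD and shControl libraries. Others fell, among them Ada (log2 fold change −0.89 and −0.73). Pgm3 was lower in shH6 (−0.39) and not called in shH4 (−0.13).

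The mitochondrial carriers of the Slc25 family had 13 genes in the table, of 47 annotated. Both hairpins called 6 higher and 4 lower, and the median was −0.14 in shH4 and −0.10 in shH6. The shH6 median was −0.060 after scaling by the column total and −0.153 after scaling by the upper quartile. Slc25a1, which exports citrate for lipid synthesis, was at 1358, 1316 and 1369 normalized counts in the shControl libraries, 963, 1022 and 933 in shH4 and 1037, 1119 and 984 in shH6. All KD libraries were below shControl, with log2 fold changes of −0.47 and −0.37 (SE 0.053; limma adjusted p = 1.35e-06 and 1.63e-05). Slc25a37, the mitochondrial iron importer mitoferrin, was at 3198, 3215 and 3073 normalized counts in the shControl libraries, 2571, 2562 and 2667 in shH4 and 2780.0, 2661 and 2568 in shH6. It fell (log2 fold change −0.28 and −0.24; SE 0.039; limma adjusted p = 1.09e-05 and 4.06e-05). Slc25a46, an outer membrane protein of mitochondrial fusion and fission, fell (log2 fold change −0.20 and −0.27).

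Higher in the same family were the dicarboxylate carrier Slc25a10 and the folate carrier Slc25a32. Slc25a10 was at 938, 985 and 1047 normalized counts in the shControl libraries, 1196, 1270.5 and 1125 in shH4 and 1203, 1187 and 1211 in shH6, and rose by 0.27 and 0.28 (limma adjusted p = 0.000242 and 0.000194). Slc25a32 rose by 0.20 and 0.23 and Slc25a16 by 0.30 and 0.35. Slc25a5, the ADP/ATP carrier ANT2, was at 7220.1, 7427 and 7255 normalized counts in the shControl libraries, 8302, 8203 and 7934 in shH4 and 7840.5, 7872 and 7705 in shH6. It was higher by 0.16 and 0.10 (limma adjusted p = 0.000352 and 0.00976), and under upper quartile scaling these were 0.097 and 0.045, with the call in shH6 lost. Slc25a5 has processed pseudogenes that could share its reads, so its value is uncertain. Of 20 genes of mitochondrial import and pyruvate entry, 8 were listed, 4 higher and 1 lower in both hairpins. The uncoupling protein Ucp2, itself a carrier of this family by sequence but not by symbol, fell (log2 fold change −0.42 and −0.59).

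Among the 10 listed genes of ion and pH control, of 65 annotated, both hairpins called 4 higher and 5 lower. Without the scaffold genes Slc9a3r1 and Slc9a3r2 these counts were 4 and 3 of 8. Slc12a2, the sodium-potassium-chloride importer NKCC1, was at 3166, 3294 and 3322 normalized counts in the shControl libraries, 4044, 3931 and 3862 in shH4 and 3829, 3736 and 3946 in shH6. It rose by 0.27 and 0.23 (SE 0.036; limma adjusted p = 6.71e-06 and 2.97e-05). The potassium-chloride exporter Slc12a4, named after its values were seen, fell (log2 fold change −0.23 and −0.17).

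In the same group, the phosphate importer Slc20a2 rose by 0.24 and 0.22. Slc8b1, the mitochondrial sodium-calcium exchanger, fell (log2 fold change −0.27 and −0.29; limma adjusted p = 0.000252 and 0.000118). The scaffold gene Slc9a3r1 fell (log2 fold change −0.21 and −0.25). Slc9a3r2 was at 119, 115 and 126 normalized counts in the shControl libraries, 71.0, 112 and 87.0 in shH4 and 71.1, 60.9 and 67.3 in shH6. Its log2 fold change was −0.43 with H4 and −0.85 with H6 (SE 0.15; limma adjusted p = 0.0120 and 0.000103), and the direct difference did not pass (adjusted p = 0.110). Without shH4 replicate 1 the shH4 value was −0.28 and did not pass (adjusted p = 0.0812), and the direct difference then passed.

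Carriers of vitamins, choline and cofactors had 7 of 21 annotated genes in the table, 5 lower and 2 higher in both hairpins. Slc44a2, a choline transporter-like protein, was at 3829.9, 3818 and 3830.4 normalized counts in the shControl libraries, 2993, 3117 and 3095 in shH4 and 3122, 3257 and 3166 in shH6. All KD libraries lay below shControl, and it fell (log2 fold change −0.32 and −0.27; SE 0.034; limma adjusted p = 8.24e-07 and 5.01e-06). Its relative Slc44a3 was at low level, 32.8, 42.7 and 25.5 normalized counts in the shControl libraries, 12.8, 15.4 and 24.4 in shH4 and 24.5, 11.5 and 15.0 in shH6. The log2 fold changes of −0.92 and −0.98 had a standard error of 0.30 (limma adjusted p = 0.00969 and 0.00664), and with library weights the shH6 value was −0.54 and did not pass (adjusted p = 0.0579). The lysosomal Slc46a3 fell (log2 fold change −0.57 and −0.44). The thiamine carrier Slc19a2 was at 2202, 2365 and 2203 normalized counts in the shControl libraries, 2676, 2591 and 2448 in shH4 and 2684, 2854 and 2570.0 in shH6. It rose by 0.19 and 0.26 (limma adjusted p = 0.00165 and 0.000125), as did Slc5a6, the carrier of biotin and pantothenate, by 0.40 and 0.32.

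The remaining 4 genes carry other substrates. Slc17a5, the lysosomal sialic acid exporter, was at 248, 287 and 230.4 normalized counts in the shControl libraries, 166, 178 and 197 in shH4 and 209.6, 205 and 205 in shH6. It fell (log2 fold change −0.50 and −0.30; SE 0.10; limma adjusted p = 0.000241 and 0.00816), and the shH6 value did not pass without shControl replicate 2 (−0.21, adjusted p = 0.0554). The fatty acid transport protein Slc27a4 rose by 0.18 and 0.26, with no call in shH4 under upper quartile scaling (0.12, adjusted p = 0.0605), and Slc22a15, of the organic ion family, rose by 0.26 and 0.23 (0.15 in shH6 with library weights). Of 15 genes of the Slco organic anion family, 0 were in the table.

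The genes were ordered by level per kilobase of merged exon length. In shControl, the highest of the 78 genes were Slc25a5 at 4436 normalized counts per kilobase, Slc39a7 at 1403 and Slc9a3r1 at 1154. The next were Slc7a5 (1089.8), Slc25a11 (1082) and Slc3a2 (986) in level per kilobase, at 828, 919 and 719.5 in shH4. The lowest were Slc39a4 at 1.31 and Slc44a3 at 6.65. The summed normalized counts of the 78 genes made up 0.801% ± 0.0105 of the column total for shControl, 0.802% ± 0.004003 for shH4 and 0.814% ± 0.00908 for shH6 (SD over 3 libraries each).

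Last, shH6 was compared with shH4, a test that does not use the control libraries for its difference. Of the 78 genes, 3 were higher in shH6 than in shH4 (against 3.89% of all listed genes) and 5 were lower (against 4.38%). The share of the 78 genes was thus near that of the table. Slc40a1 differed most, by −0.88 as a log2 difference (SE 0.18; limma adjusted p = 0.00535), and kept its call under all 18 alternative settings. Slc40a1 RNA was thereby lower in shH6, the line with the weaker KD of Resf1 RNA, and a link between them was not tested. Slc7a4 (0.70, limma adjusted p = 0.0413), Slc30a1 (0.31, limma adjusted p = 0.0336) and Slc1a4 (0.17, limma adjusted p = 0.0304) were higher in shH6, so that each had fallen more in shH4. Slc39a10 was lower in shH6 by −0.17 (limma adjusted p = 0.0251), having risen more in shH4.

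The other 3 genes were lower in shH6 and did not pass against shControl in shH4 (limma adjusted p = 0.0662, 0.0970 and 0.0563 for Slc4a7, Slc15a2 and Slc25a33). All 3 passed in shH4 after scaling by the upper quartile (adjusted p = 0.00417, 0.0139 and 0.0120). Slc25a33 also passed without a trend (adjusted p = 0.00949), and Slc4a7 with library weights (adjusted p = 0.0476) and without shH4 replicate 1 (adjusted p = 0.02999). Slc4a7, a sodium bicarbonate cotransporter, was at 1787, 1745 and 1773 normalized counts in the shControl libraries, 1739, 1666 and 1614 in shH4 and 1499, 1529.8 and 1476 in shH6. Slc15a2, the peptide transporter PEPT2, was at 871, 846 and 814 normalized counts in the shControl libraries, 755, 797 and 822 in shH4 and 717, 694 and 688 in shH6. Slc25a33, a mitochondrial pyrimidine nucleotide carrier, was at 361, 363 and 344 normalized counts in the shControl libraries, 331, 326 and 311 in shH4 and 279, 268 and 276 in shH6. In each of these genes the shH6 libraries lay below all other libraries, and the shH4 libraries of Slc4a7 and Slc25a33 lay below shControl. The differences were −0.15, −0.18 and −0.23 on the log2 scale (limma adjusted p = 0.0245, 0.0462 and 0.0462). Of the metal-handling genes, Mt1 exceeded its shH4 level in shH6 by 0.24 (limma adjusted p = 0.00136), the direction of Slc30a1, and Ftl1 was lower by −0.18 (limma adjusted p = 0.0100), the direction of Slc40a1. Over the 9 fits that left out 1 library, the call was kept in 6 for Slc39a10, in 5 for Slc4a7, Slc1a4 and Slc30a1, in 1 for Slc15a2 and Slc7a4 and in 0 for Slc25a33. The differences kept their sign, from 0.51 to 0.92 for Slc7a4 and from 0.23 to 0.37 for Slc30a1. They ran from −0.26 to −0.21 for Slc25a33 and from −0.21 to −0.15 for Slc15a2. The count of 8 fell whichever library was left out. It was 2 without shH6 replicate 3 and 3 without shH4 replicate 2, shH6 replicate 1 or shH6 replicate 2. It was 4 without shH4 replicate 3, and 5 without shH4 replicate 1 or shControl replicate 3.

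**Figure D5:**
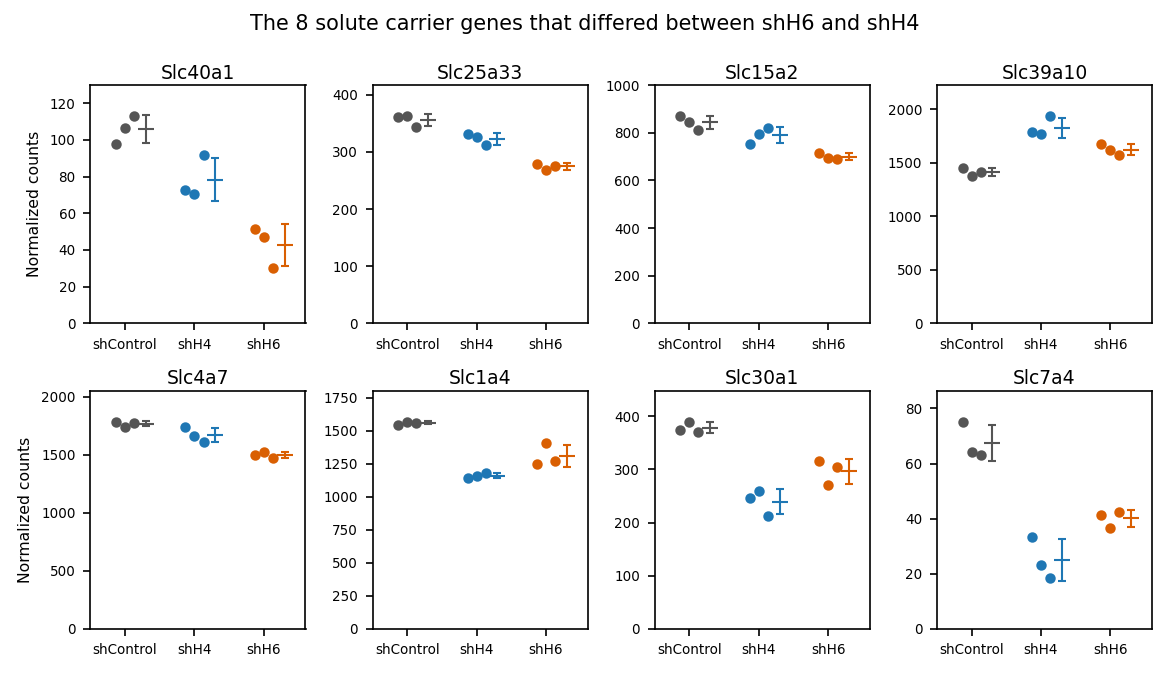
Normalized counts (y axis) of the 8 genes called between shH6 and shH4 in each of the 9 libraries (points) by group (x axis), with the mean and SD beside them, in order of the difference. The shH6 libraries lie below all shH4 libraries in the first 5 panels and above them in the last 3.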

How the data were processed

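RNA-seq was done with stranded total RNA libraries from RNA with an integrity number above 7. Per the labels, the authors used STAR 2.7.8a in Partek, DESeq2 and mm39. The annotation and how reads were counted are not given in the sources used here. The values that the authors deposited were a signal per gene, not raw counts, and appeared to be read counts divided by a size factor. The spacing of the low values gave estimated size factors from 0.802 to 1.46, which the authors did not state. Between 51.4% and 77.3% of low values were within 0.02 reads of a whole number, so no count-based test was run.

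Symbols, types and merged exon lengths came from GENCODE M21 (GRCm38), which 5258 of 5301 identifiers matched. Promoters came from RefSeq (GRCm38.p6). The test was limma 3.58.1 (R 4.3.3) on log2(value + 1), in a model with a mean per group over 9 libraries, with a trend and Benjamini-Hochberg adjustment over all 5301 genes. Fold changes on this scale understate those of genes at low level. The fit was tested on simulated data.

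Members, lists and settings were chosen with earlier results of these data known. Genes were named if they were among 22 preset symbols, of which 11 were listed, if they were among the 3 highest or lowest per substrate in both hairpins, if they differed between hairpins, or if they were among the 3 highest per kilobase. This named 50 of the 78 genes. The counts cover all 78 genes, but 2 of them are not reported here by themselves and are left out of the plot of changes by substrate. The alternatives were a filter, pseudocounts of 10 and 0.5, 2 other scalings, library weights, no trend, only the groups compared, a replicate block and leaving out each library.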

Additional observations from a re-analysis of the deposited data

Results flagged for a closer look

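In 8 solute carrier genes the effect differed between the hairpins in the direct test (limma adjusted p under 0.05). On the log2 scale, shH6 minus shH4, the difference was −0.88 for Slc40a1, −0.23 for Slc25a33, −0.18 for Slc15a2, −0.17 for Slc39a10 and −0.15 for Slc4a7. It was 0.17 for Slc1a4, 0.31 for Slc30a1 and 0.70 for Slc7a4. In all 8 genes the 3 shH6 libraries lay on one side of the 3 shH4 libraries. The genes were chosen by a test on these same libraries, so this separation is no further support. Over the 18 alternative settings, Slc40a1 passed in 18, Slc39a10 and Slc4a7 in 14, Slc1a4 and Slc30a1 in 12, Slc7a4 in 8, and Slc25a33 and Slc15a2 in 5. The adjusted p-value of Slc40a1 ran from 0.00455 to 0.0370 over these settings. Each hairpin was 1 transduced line, so the hairpin and the line cannot be told apart.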

How the results depend on the processing

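Over 18 alternative settings, 2230 values were recomputed. Of 288 values of counts and group medians, 243 stayed within the set limits, and of 1942 values of named genes, 1853 kept their sign and call, 83 no longer passed, 6 newly passed and 0 reversed. Where a value moved, the cause was not tested, except that leaving out a library leaves fewer samples and that scaling shifts all genes (median by −0.061 in shH4 and −0.052 in shH6 for the upper quartile, 0.027 and 0.041 for the column total). Count-based tests were not run, because the values are not counts. The number of genes called between the hairpins, 8, was 3 without a trend and 4 with only these groups in the fit, and ran from 2 to 6 when 1 library was left out. Scaling by the upper quartile gave medians of −0.213 (all 78 genes, shH4), −0.256 (all, shH6), −0.258 and −0.299 (amino acids, shH4 and shH6), 0.099 and 0.134 (metals), 0.148 and 0.178 (nucleotide sugars) and −0.203 (Slc25, shH4), and 26 genes called higher and 47 lower in shH4 and 28 and 47 in shH6. The column total gave −0.163 (all, shH6), −0.171 and −0.206 (amino acids), 0.227 (metals, shH6) and −0.115 (Slc25, shH4). Library weights gave −0.190 (all, shH6), −0.223 (amino acids, shH6), −0.466 (sugars, shH6) and −0.128 (Slc25, shH4), and the filter of 10 gave −0.211 (all, shH6). Leaving out 1 library gave medians from −0.213 to −0.193 (all, shH6), −0.229 to −0.165 (amino acids, shH4), −0.248 to −0.211 (amino acids, shH6), 0.123 to 0.2001 (metals, shH4), 0.161 to 0.2203 (nucleotide sugars, shH4) and −0.166 to −0.116 (Slc25, shH4).

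The replicate numbers did not pair the samples, since the correlations of deviations between libraries of the same number ran from −0.155 to 0.108. With the number as a replicate block, 73 genes were called in shH4, 77 in shH6 and 6 between the hairpins, against 73, 76 and 8. Slc25a27 was gained in shH6, and Slc15a2 and Slc25a33 were lost between the hairpins.

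Depth limits the genes at low level. Slc39a4, with a mean of 4.05 normalized counts in shControl, was removed by the filter of 10. No molecular identifiers were used here, and the true number of reads behind a value is known only through the estimated size factors.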
